A study of Mus musculus with 5 samples.

Results

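The genes described here are Pecam1, Ptprc, Erg, Eng, Egfl7 and Fli1, 6 of the 27998 genes in the count tables, in single cells from mouse bone marrow. They were listed for their levels over cell classes in these same libraries: the genes behind the 2 sort antigens, CD31 and CD45, with 4 genes associated with endothelium. Their levels by class are therefore a description with no test. Age was not used in the listing and was tested.

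Cells were sorted as CD45- CD31+ from endosteal bone marrow preparations, frozen, thawed and counted in 3′ droplet libraries that tag each RNA molecule with a unique molecular identifier (UMI). The 2 aged libraries, replicates 2 and 3, came from mice over 20 months old, and the 3 young libraries, replicates 1, 2 and 3, from mice of 10 to 12 weeks. All mice were of the Nes-GFP strain, young mice included, and the number of mice behind a library is not given in the sources used here. The study asked what ageing changes in marrow endothelium, but only 22 of the 2116 kept cells fell in a cluster with endothelial leading genes such as Cldn5, Cav1 and Gpihbp1, and 1913 were of B-lineage clusters. The labelled cell type is therefore absent from most cells, and the 6 genes are described in B-lineage stages, against 181 myeloid-like cells and 18 Cdh5-positive cells of the endothelial-like cluster. Another 5 kept cells with a Cdh5 UMI lay outside that cluster and are not in that class.

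CD31, encoded by Pecam1, is an adhesion receptor of endothelial junctions that is also present on many blood cells and carries inhibitory tyrosine motifs. CD45, encoded by Ptprc, is the receptor tyrosine phosphatase of blood cells that sets the activity of Src family kinases below the B cell receptor. Erg and Fli1 are related ETS family transcription factors of endothelium and of blood stem cells; endoglin, encoded by Eng, is a co-receptor for TGF-β family ligands; Egfl7 is a protein secreted by endothelium. B-cell progenitors first make the surrogate light chain (Vpreb1, Vpreb2, Igll1), then divide as large pre-B cells, then rest as small pre-B cells, and gain MHC class II as they become immature B cells.

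Kept barcodes numbered 282 and 402 in the aged libraries and 890, 226 and 316 in the young ones, of 3384 barcodes in all. Median UMIs per kept cell ranged from 1889.5 to 4212.5 and total UMIs per library from 935656 to 5900751. Young replicate 1 stood apart: it held 172 of the 181 myeloid-like cells and 601 of the 753 dividing cells. The same barcode sequence was found in 2 or more libraries 26 times, 5 times among kept cells. B-lineage cells were gated on counts thinned to 1000 UMIs a cell into 377 resting cells positive for the surrogate light chain (at least 2 UMIs of Vpreb1, Vpreb2, Igll1 and Dntt), 753 dividing cells, 585 resting pre-B cells low for MHC class II and 198 resting cells positive for MHC class II. At the gates, 35 cells had exactly 2 UMIs of the surrogate light chain gate genes and 123 resting cells had 1, 78 and 269 cells had 2 and 1 cell-cycle genes, and 33 and 55 had 3 and 2 MHC class II UMIs.

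The sequences before a RefSeq start of Erg, Eng and Egfl7 are shown because these 3 genes shared the stage with the highest share of cells among the B-lineage stages. Each is the 250 bases before the 5′-most RefSeq start (build GRCm38.p6), on the gene's strand, and every GGAA or its reverse complement TTCC, the core bound by ETS factors, is in capitals. The set of promoter sequences used here held entries for 4 of the 6 genes, these and Ptprc. The windows are chr16:95586594-95586843 on the minus strand for Erg, chr2:32646345-32646594 on the plus strand for Eng and chr2:26580833-26581082 on the plus strand for Egfl7. The Egfl7 window lies inside the gene as GENCODE annotates it, whose start is further 5′.
Erg: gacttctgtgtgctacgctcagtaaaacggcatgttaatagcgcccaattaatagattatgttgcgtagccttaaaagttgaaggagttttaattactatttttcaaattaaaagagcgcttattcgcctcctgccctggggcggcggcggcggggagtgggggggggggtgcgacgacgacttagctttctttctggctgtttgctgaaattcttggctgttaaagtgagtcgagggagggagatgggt
Eng: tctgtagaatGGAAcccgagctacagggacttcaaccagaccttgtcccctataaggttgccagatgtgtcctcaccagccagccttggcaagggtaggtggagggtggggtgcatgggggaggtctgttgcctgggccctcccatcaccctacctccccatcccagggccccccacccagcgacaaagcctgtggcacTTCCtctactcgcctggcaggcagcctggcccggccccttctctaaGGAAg
Egfl7: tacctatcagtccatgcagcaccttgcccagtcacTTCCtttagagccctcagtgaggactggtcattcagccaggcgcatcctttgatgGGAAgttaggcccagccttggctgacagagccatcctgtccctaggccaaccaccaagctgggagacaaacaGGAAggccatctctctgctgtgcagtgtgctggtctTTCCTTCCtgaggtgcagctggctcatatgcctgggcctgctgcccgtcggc
The Egfl7 window held 5 matches to GGAA on both strands together, the Eng window 3 and the Erg window 0, where 93.4% of 32851 windows of the same length held at least 1. The longer form CCGGAAG, which contains GGAA, was in none of the 3 windows and in 6.91% of all windows. The core of the Ebf1 motif, CCCNNGGG, was found 1 time, in the Erg window (11.8% of all windows), and the E box CAGGTG was in none of the 3 (17.2% of all windows). These letter matches are a description of the windows. The genes lie on mouse chromosomes 11 (Pecam1, 106654217 to 106750628), 1 (Ptprc, 138062861 to 138175708), 16 (Erg, 95359169 to 95586593), 2 (Eng, 32646595 to 32682669, and Egfl7, 26580014 to 26593120) and 9 (Fli1, 32422204 to 32542861), all protein-coding in the GRCm38 annotation.

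The sort antigen genes came first. At 1000 UMIs a cell, a Pecam1 UMI was found in 13.8% of surrogate light chain positive cells, 5.05% of dividing cells, 15.04% of MHC class II low pre-B cells and 15.2% of MHC class II positive cells. Among myeloid-like cells it was found in 6.08%, and among Cdh5-positive cells in 83.3% (15 of 18, exact 95% interval 58.6 to 96.4%). The myeloid-like value pools unlike cells. It was 2.97% of 101 cells highest for neutrophil markers and 7.25% of 69 other cells. In 11 cells highest for basophil and mast cell markers it was 27.3% (exact 95% interval 6.02 to 61.0%). Without thinning, 24.3% of dividing cells held a Pecam1 UMI at a median of 4101 UMIs. The unthinned value of all resting B-lineage cells was 28.1% at a median of 2257.5 UMIs. At 1000 UMIs a cell, resting B-lineage cells of every stage lay between the dividing cells and the Cdh5-positive cells. By library, the Pecam1 share in all resting B-lineage cells was 19.8% and 10.7% in aged replicates 2 and 3, against 11.9%, 21.7% and 11.03% in young replicates 1, 2 and 3. The 2 libraries numbered replicate 2, one of each age, were the highest.

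A Ptprc UMI was found in 8.49% of surrogate light chain positive cells, 7.97% of dividing cells, 15.4% of MHC class II low pre-B cells and 15.2% of MHC class II positive cells. Myeloid-like cells had 8.84%. In Cdh5-positive cells the count was 0 of 18 (at most 16.7% by the limit of 3 counts), a limit above the B-lineage shares at this depth. Without thinning, 27.3% of resting B-lineage cells held a Ptprc UMI at a median of 2257.5 UMIs, against 55.2% of myeloid-like cells at a median of 9535 UMIs and again 0 of 18 Cdh5-positive cells at a median of 2594 UMIs, where the limit is 16.7%. Dividing cells without thinning had 35.2% at a median of 4101 UMIs, above the resting value, unlike at 1000 UMIs. The cells were sorted as CD45-, and Ptprc mRNA was counted in all B-lineage stages. All such intervals and limits cover counting error only.

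Pecam1 and Ptprc transcripts were found together in 22 of 1160 resting B-lineage cells. Of resting cells with a Pecam1 UMI, 12.9% also had a Ptprc UMI, against 13.1% of those without one. The stages within that pool differed in direction: 15.4% with Pecam1 against 7.38% without it in surrogate light chain positive cells, 10.2% against 16.3% in MHC class II low pre-B cells, and 16.7% against 14.9% in MHC class II positive cells. In dividing cells both were found in 6 of 753, and the shares were 15.8% with Pecam1 and 7.55% without it. These counts are small and were not tested. By library the share with Ptprc among Pecam1-positive resting cells ran between 7.69% and 16.3%.

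**Figure D1:**
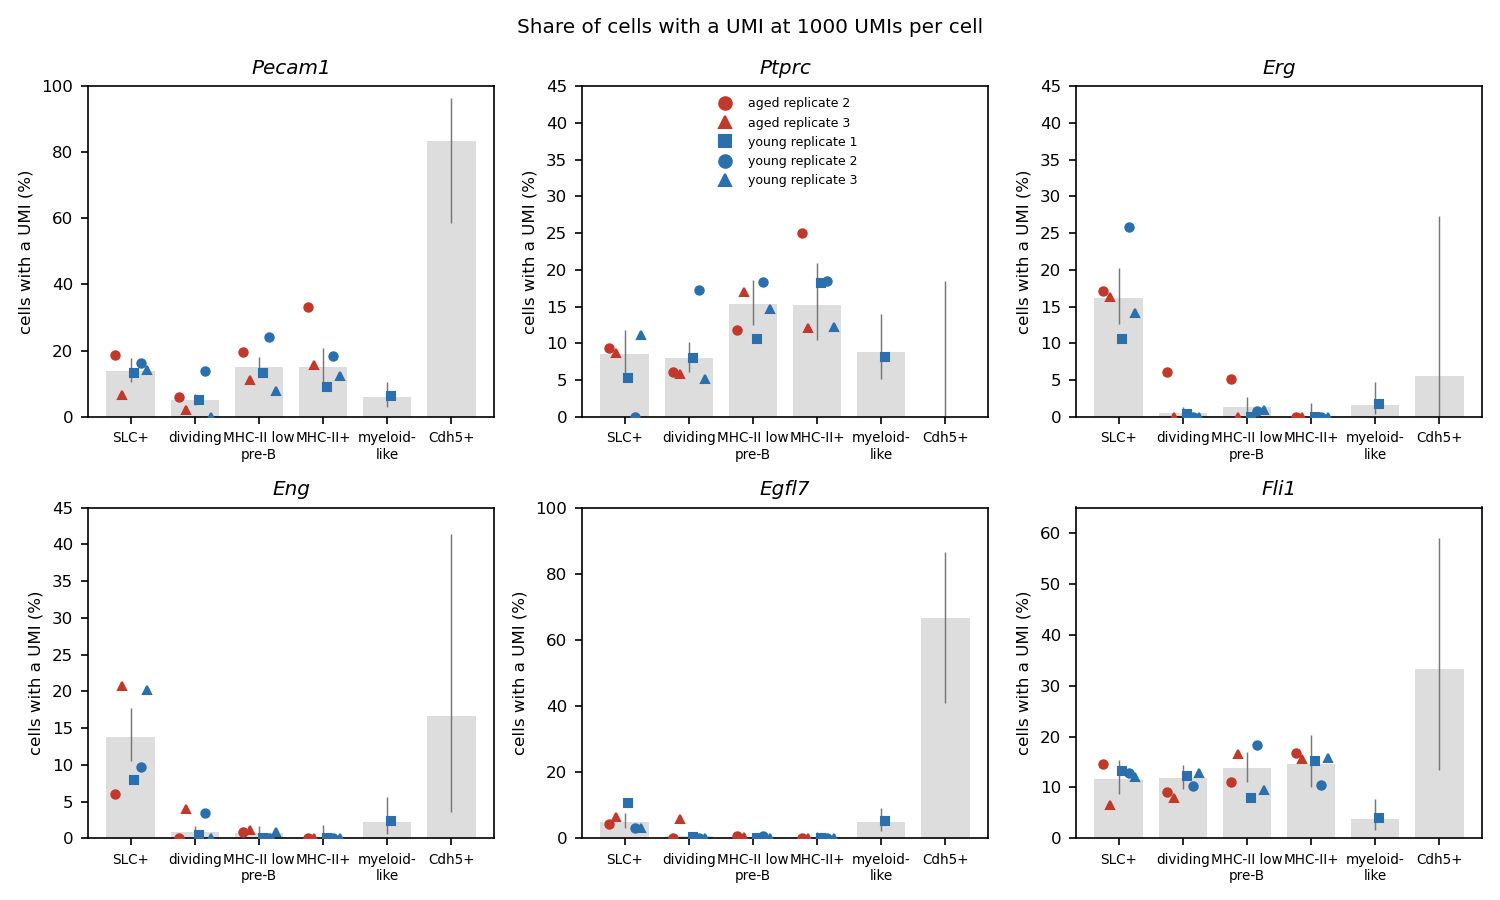
Share of cells with a UMI (%) of each gene at 1000 UMIs per cell, by class; SLC+ is surrogate light chain positive. Grey bars are all cells of a class with exact 95% binomial intervals, points are libraries with at least 10 cells of the class (aged red, left; young blue, right), and axes differ between panels. Erg and Eng stand at 16.2% and 13.8% in SLC+ cells and under 2% in the other B-lineage classes pooled.

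Erg, Eng and Egfl7 were highest in the surrogate light chain positive cells among B-lineage stages. An Erg UMI was found in 16.2% of these cells (61 of 377), 0.531% of dividing cells, 1.37% of MHC class II low pre-B cells and 0 of 198 MHC class II positive cells, a limit of 1.52%. The values in myeloid-like and Cdh5-positive cells were 1.66% and 5.56% (1 of 18). The exact interval for the Cdh5-positive cells, 0.141 to 27.3%, contains the surrogate light chain positive share. These 18 cells therefore do not show which of the classes is higher in Erg. In the surrogate light chain positive cells the Erg share was 17.1% and 16.3% in aged replicates 2 and 3, against 10.5%, 25.8% and 14.1% in young replicates 1, 2 and 3. Every library's value in this class was above its own values in the other B-lineage classes, and the mean over libraries (16.8% ± 5.65, SD, n = 5) exceeded the next stage, the Rag-positive cells (2.72% ± 3.16, SD, n = 4), by more than either spread.

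An Eng UMI was found in 13.8% of surrogate light chain positive cells, 0.797% of dividing cells, 0.684% of MHC class II low pre-B cells and 0 of 198 MHC class II positive cells. It was found in 2.21% of myeloid-like cells and 16.7% of Cdh5-positive cells (3 of 18, exact interval 3.58 to 41.4%). That interval contains the surrogate light chain positive share of Eng. By library the share in surrogate light chain positive cells was 5.98% and 20.7% in aged replicates 2 and 3, against 7.89%, 9.68% and 20.2% in young replicates 1, 2 and 3. The 2 replicate 3 libraries were the high ones and the ages overlapped. The mean over libraries was 12.9% ± 7.01 (SD, n = 5), and S-phase cells, next in order, had 1.67% ± 3.73 (SD, n = 5). All of that S-phase value came from 1 library, at 8.33%. Pooled, 0.926% of 216 S-phase cells held an Eng UMI.

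Egfl7 was less often seen, in 5.04% of surrogate light chain positive cells, 0.797% of dividing cells, 0.513% of MHC class II low pre-B cells and 0 of 198 MHC class II positive cells. Myeloid-like cells had 4.97% and Cdh5-positive cells 66.7%. The surrogate light chain positive share depended on the thinning: its mean over libraries was 5.52%, and 11.6% with a second random seed. By library it was 4.27% and 6.52% in aged replicates 2 and 3, against 10.5%, 3.23% and 3.03% in young replicates 1, 2 and 3. The gap to the next B-lineage stage was within the spread over libraries, 5.52% ± 3.13 against 2.50% ± 5.59 in S-phase cells (SD, n = 5 each). All of the S-phase value came from 1 library, at 12.5%. Pooled, 1.39% of 216 S-phase cells held an Egfl7 UMI.

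Fli1 did not follow Erg, its relative. A Fli1 UMI was found in 11.7% of surrogate light chain positive cells, 11.8% of dividing cells, 13.8% of MHC class II low pre-B cells and 14.6% of MHC class II positive cells. Myeloid-like cells had 3.87% and Cdh5-positive cells 33.3%. No 2 neighbouring B-lineage stages in the order of Fli1 differed by more than the spread over libraries. Its share in surrogate light chain positive cells was 14.5% and 6.52% in aged replicates 2 and 3, against 13.2%, 12.9% and 12.1% in young replicates 1, 2 and 3, so that only aged replicate 3 was low.

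Within resting cells, Erg and Eng followed the count of gate UMIs, a split made after the values had been seen. That count sums Vpreb1, Vpreb2, Igll1 and Dntt, of which Dntt (terminal transferase, which adds bases at heavy chain joints) is no part of the surrogate light chain. An Erg UMI was found in 21.4% of 159 cells with at least 10 gate UMIs, 14.2% of 183 cells with 3 to 9, 2.86% of 35 cells with exactly 2, 0 of 123 cells with 1 (allowing up to 2.44%) and 1.21% of 660 cells with 0. The Eng shares in the same order were 21.4%, 9.29%, 2.86%, 0 and 0.606%. Pecam1 stayed between 12.6% and 15.2% over the same 5 groups, whose intervals overlapped. Ptprc ran the other way, with 6.92% at 10 or more UMIs and 15.2% at 0. Cells with at least 2 gate UMIs are the surrogate light chain positive class, so the split at that count repeats the contrast of classes. The groups also pool libraries and clusters that differ in Erg and Eng, and their part in these values was not tested.

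**Figure D2:**
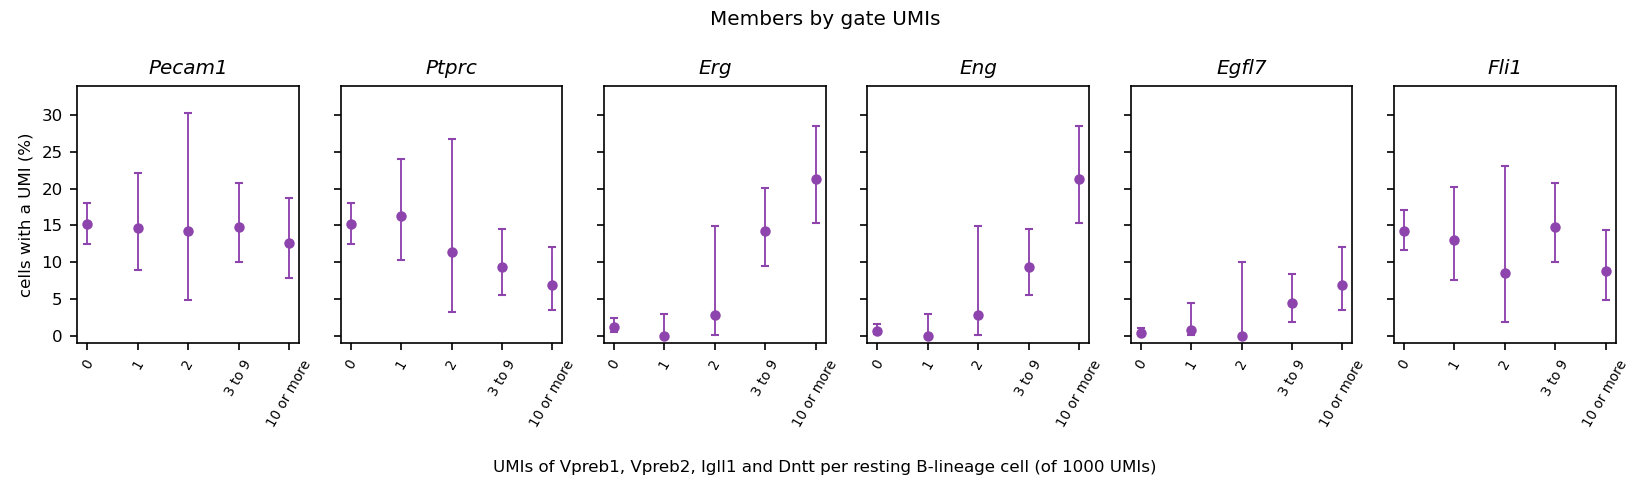
Share of resting B-lineage cells with a UMI (%) of each gene against the number of gate UMIs (Vpreb1, Vpreb2, Igll1 and Dntt) in the cell, each cell thinned to 1000 UMIs; bars are exact 95% binomial intervals for all libraries pooled. Erg and Eng reach 21.4% at 10 or more UMIs, while Pecam1 stays between 12.6% and 15.2%.

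Dividing cells with gate UMIs had few of these transcripts. Of 127 dividing cells with at least 2 gate UMIs, 3.15% held an Erg UMI, 0.787% an Eng UMI and 2.36% an Egfl7 UMI. Of the 626 other dividing cells, 0 held an Erg UMI, which allows up to 0.479%. Within the resting class, cells that held a Dntt UMI had Eng in 18.6% of 172 and the others in 9.76% of 205. The same split gave Erg in 18.6% and 14.1%. Dntt enters the gate count, so this split in part repeats the one by gate UMIs, and it too pools libraries and clusters.

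The surrogate light chain positive class held 2 main clusters. In cluster 2, with 269 of these cells from all 5 libraries, Erg was found in 20.8%, Eng in 18.6% and Egfl7 in 6.32%. In cluster 7, with 73 of them, 59 from aged replicate 2, Erg was found in 4.11%, Eng in 1.37% and Egfl7 in 0 (allowing up to 4.11%). A cluster mostly of 1 library may be that library. Cluster 7 made up 59 of 117 surrogate light chain positive cells in aged replicate 2 and 2 of 92 in aged replicate 3, against 0 of 38, 7 of 31 and 5 of 99 in young replicates 1, 2 and 3.

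Erg and Eng transcripts were found together in 15 of the 377 cells. Of cells with an Erg UMI, 24.6% had an Eng UMI, against 11.7% of cells without one. Erg with Egfl7 was seen in 2 cells and Eng with Egfl7 in 4. These counts pool libraries that differ in both genes and were not tested.

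Most other endothelial genes were not detected in these cells. Of 25 other endothelial genes, 18 had no UMI in the surrogate light chain positive cells, and 24 of the 25 had a UMI in at least 1 of 18 Cdh5-positive cells, a class that Cdh5, one of the 25, defines. The number with no UMI was 16 in dividing, 17 in MHC class II low, 21 in MHC class II positive and 20 in myeloid-like cells. The 2 found in at least 5% of surrogate light chain positive cells were S1pr1 (12.2%), a sphingosine phosphate receptor, and Lmo2 (6.37%), an adaptor of blood and vessel transcription complexes. Both are also known in blood cells. S1pr1 was found in 11.3% of MHC class II low pre-B cells, and Lmo2 in 17.1% of myeloid-like cells. A list of 17 endothelial markers gave 3.98 UMIs per 100 surrogate light chain positive cells (library range 2.56 to 7.89), with 10 markers at 0, Tek, Tie1, Flt1, Esam, Plvap and Cldn5 among them, against 4211 UMIs per 100 Cdh5-positive cells. The same list gave 2.52 UMIs per 100 dividing, 3.25 per 100 MHC class II low, 1.52 per 100 MHC class II positive and 4.97 per 100 myeloid-like cells. Without the surrogate light chain positive cells that held any marker UMI, 362 remained, and Erg was found in 16.02%, Eng in 13.5% and Egfl7 in 4.97% of them. Few cells were left out, so these shares could change little, and the source of the transcripts was not tested.

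**Figure D3:**
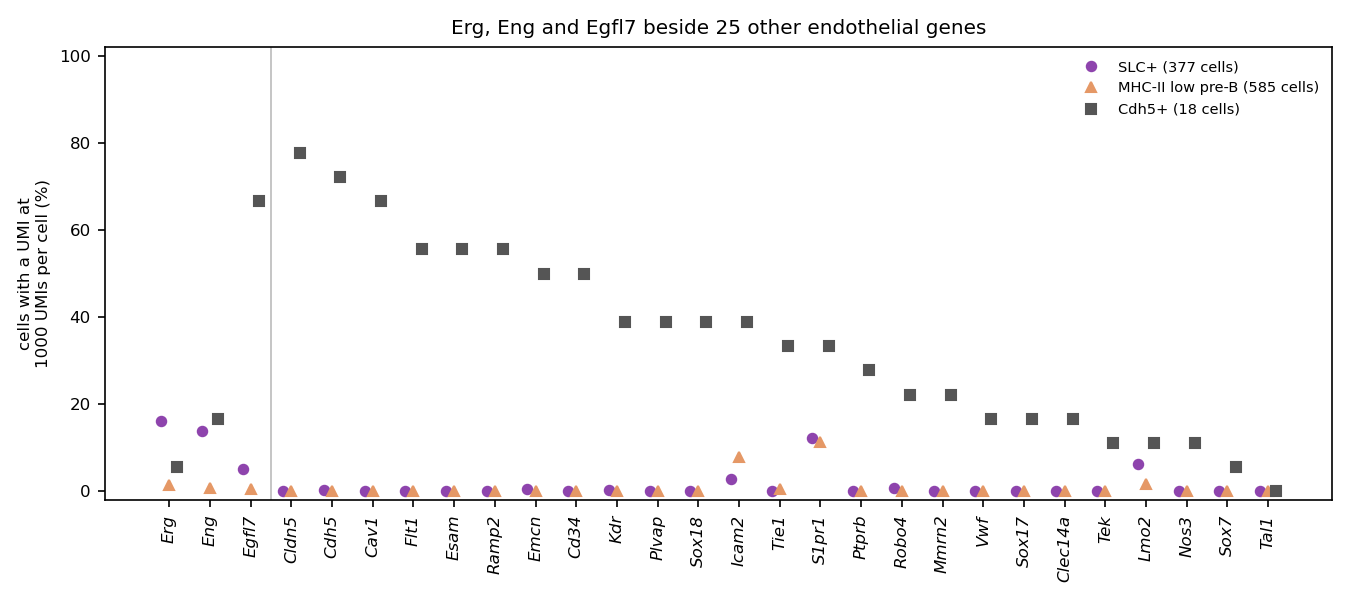
Share of cells with a UMI (%) at 1000 UMIs per cell for Erg, Eng and Egfl7 (left of the line) and 25 other endothelial genes, ordered by their share in Cdh5-positive cells. Erg and Eng reach 16.2% and 13.8% in surrogate light chain positive (SLC+) cells, where 18 of the 25 other genes have no UMI.

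The listed partners of each gene were described in the same way. Of 12 genes of the endoglin receptor complex, Id3 and Tgfb1 reached 5% of surrogate light chain positive cells, and both did in the other B-lineage classes. Acvrl1, the endothelial receptor that endoglin partners, had 0 UMIs in surrogate light chain positive cells and was in 16.7% of Cdh5-positive cells. Tgfbr2, the type II TGF-β receptor, was found in 3.71% of surrogate light chain positive cells and 10.6% of MHC class II low pre-B cells. Of 12 other ETS factors, 7 reached 5% of surrogate light chain positive cells. The counts were 7, 8 and 8 in dividing, MHC class II low and MHC class II positive cells. Elk3, an ETS factor, was found in 15.4% of surrogate light chain positive cells, 4.91% of dividing cells and 8.21% of MHC class II low pre-B cells. Of 12 partners of CD31 and CD45, 6 reached 5% of surrogate light chain positive cells, against 8 in each of the other B-lineage classes. Ptprcap, which encodes a protein bound to CD45, was found in 58.4% of surrogate light chain positive cells. It was in 63.7% of dividing, 60.5% of MHC class II low and 63.1% of MHC class II positive cells. Cd38, a known ligand of CD31, was found in 2.92% of surrogate light chain positive cells and 11.8% of MHC class II low pre-B cells. All 12 other pan-leukocyte genes reached 5% of surrogate light chain positive cells, and 12, 11 and 12 did in dividing, MHC class II low and MHC class II positive cells.

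Likeness was measured by Pearson's r of log2(CPM + 50), where CPM is the UMIs of a gene per 1000000 UMIs of the summed cells, over 35 sums of 1 class in 1 library; sums from 1 library share its depth and cells, and no p is given. Erg was most like Gm30948 (r = 0.91), Gimap6 (0.87) and Hhex (0.85), a homeobox factor. Eng was most like Phldb3 (0.79), Hhex (0.78) and Gm30948 (0.77). Egfl7 was most like Ptpn18 (0.79), Hhex (0.73) and Gmfg (0.72). Pecam1 was most like Elf1 (0.84), an ETS factor, Klhl24 (0.80) and Kmt2e (0.78); Ptprc like Nuak1 (0.79), Hivep1 (0.77) and Otulin (0.76); and Fli1 like Zmynd8 (0.76), Clk1 (0.72) and Pnrc1 (0.71). Between members, Erg and Eng had r = 0.74, Erg and Fli1 0.24, and Pecam1 and Ptprc 0.49.

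Age was tested by summing the raw counts of each class in each library and fitting edgeR's quasi-likelihood test over all genes, aged over young, with Benjamini-Hochberg adjustment (2 aged against 3 young libraries). Of 30 pairs of a member and a class, 21 passed the filter on low counts and were tested, and Erg, Eng and Egfl7 were not tested in dividing, MHC class II low or MHC class II positive cells. None of the 21 passed, in 5 classes in which 0% of the tested genes were called: resting B-lineage (0 of 6511), dividing (0 of 3701), surrogate light chain positive (0 of 4229), MHC class II low pre-B (0 of 4617) and MHC class II positive cells (0 of 2219). At an unadjusted p under 0.05 there were 110, 145, 103, 61 and 55 genes in that order, and DESeq2 called 0 in each. Whether p-values reflect animals or preparations is not given, so they measure the spread between these libraries.

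Erg summed to 197 and 215 CPM in surrogate light chain positive cells of aged replicates 2 and 3, against 105, 253 and 156 CPM in young replicates 1, 2 and 3. The ages overlapped, with a log2 fold change of 0.23 ± 0.34 (SE) and an edgeR adjusted p of 0.9998. Over all resting B-lineage cells Erg had 120 and 79.5 CPM in aged libraries, against 43.0, 67.4 and 74.6 CPM in young ones. These groups did not overlap, and the log2 fold change of 0.59 ± 0.31 (SE) did not pass (edgeR adjusted p = 0.9998). The share of resting cells in the surrogate light chain gate was larger in aged replicate 2 (117 of 247) than in the other 4 libraries, where it was 92 of 338, 38 of 109, 31 of 194 and 99 of 272, and its part in the Erg value was not tested.

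Eng summed to 55.1 and 207 CPM in surrogate light chain positive cells of aged replicates 2 and 3, against 32.3, 59.5 and 248 CPM in young replicates 1, 2 and 3. The spread within each age was larger than the difference between ages (log2 fold change -0.085 ± 0.56 SE, edgeR adjusted p = 0.9998). Egfl7 had 55.1 and 97.5 CPM in aged libraries, against 88.9, 59.5 and 40.1 CPM in young ones (log2 fold change 0.28 ± 0.44 SE, edgeR adjusted p = 0.9998). Fli1 had 168 and 121 CPM in aged libraries, against 170, 208 and 156 CPM in young ones (log2 fold change -0.32 ± 0.33 SE, edgeR adjusted p = 0.9998). For all 3 genes the ages overlapped.

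Pecam1 in the same class had 171 and 85.8 CPM in aged libraries, against 97.0, 186 and 104 CPM in young ones (log2 fold change 0.0072 ± 0.36 SE, edgeR adjusted p = 0.9998). Ptprc had 89.2 and 93.6 CPM in aged libraries, against 88.9, 74.4 and 92.2 CPM in young ones (log2 fold change 0.034 ± 0.34 SE, edgeR adjusted p = 0.9998). The largest fold change among the 21 tested pairs was Pecam1 in MHC class II positive cells, with 414 and 183 CPM in aged libraries, against 56.8, 170 and 91.1 CPM in young ones. The groups did not overlap, and the log2 fold change of 1.23 ± 0.47 (SE) had an edgeR adjusted p of 0.999. Aged replicate 2 contributed 12 cells to that class, and without it the log2 fold change was 0.75. Among untested pairs, the ages also did not overlap for Egfl7 in dividing cells (22.9 and 55.8 CPM in aged, against 12.0, 0 and 7.13 CPM in young libraries) and Eng in MHC class II low cells (6.37 and 6.34 CPM in aged, against 0, 0 and 4.84 CPM in young libraries). The first rests on 5 and 12 UMIs in aged and 39, 0 and 1 in young libraries. The second rests on 2 and 2 in aged and 0, 0 and 1 in young libraries. Of the 30 pairs of a member and a class, 4 had ages that did not overlap. The share of all genes that did so is not given here, so no age difference is read from these pairs.

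**Figure D4:**
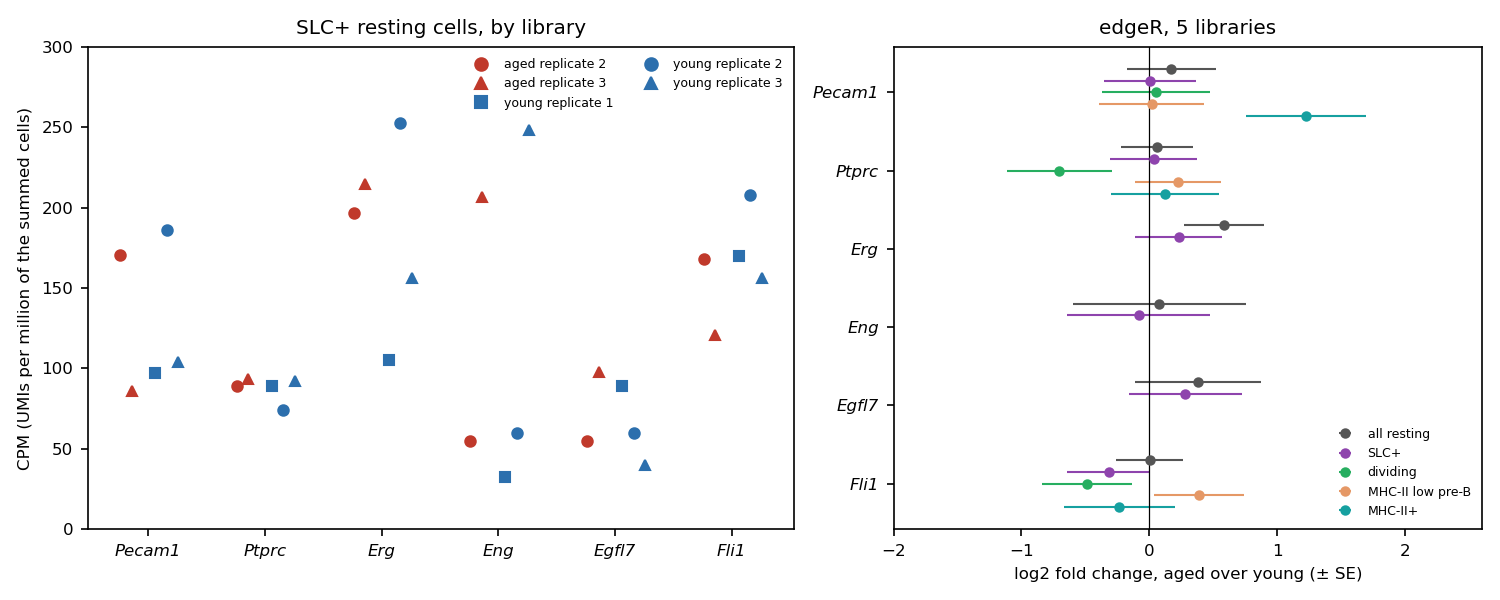
Left, CPM of each gene in surrogate light chain positive (SLC+) cells by library, aged in red and young in blue. Right, log2 fold change of aged over young with its standard error from edgeR for each class in which the gene was tested (2 aged, 3 young libraries). The largest tested value is Pecam1 in MHC class II positive cells, 1.23, and none passed.

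Shares at equal depth were compared between ages with an exact permutation test, two-sided, over the 10 ways to choose 2 aged libraries, for which the smallest p is 0.1. Of 12 comparisons, 6 genes in resting and in dividing cells, the smallest p was 0.2, for Fli1 in dividing cells (8.47% ± 0.882 in aged and 11.8% ± 1.31 in young libraries, SD, n = 2 and 3), and every exact p adjusted over the 12 was 1. The design cannot reach 0.05 by this test.

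None of the list members that were tested for age passed in any class, in either direction. Tested members were few in 2 lists: 1 to 3 of 25 other endothelial genes and 2 to 6 of 12 endoglin complex genes, depending on the class. In surrogate light chain positive cells the median log2 fold change was 0.050 over 8 tested CD31 and CD45 partners, 0.24 over 4 genes of the endoglin receptor complex, -0.093 over 7 ETS factors, 0.62 over 2 other endothelial genes and -0.098 over 12 pan-leukocyte genes, beside -0.0086 over all genes tested. The partners of highest level, Cd79a, Cd79b and Ptprcap, had -0.24, 0.19 and -0.17. In the endoglin list Id3, Tgfb1 and Smad5 had 0.056, 0.54 and -0.13, among ETS factors Ets1, Elf1 and Spib -0.20, -0.63 and 0.056, and S1pr1 and Lmo2 0.33 and 0.90.

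For Eng the libraries differed more by replicate number than by age. The comparison of replicate numbers was chosen after the values by library had been seen, so its p-values are not independent of that choice; it set replicate 3 over replicate 2 with age as a term, in the 4 libraries of those numbers. In surrogate light chain positive cells Eng was higher in replicate 3 libraries (207 CPM aged and 248 CPM young) than in replicate 2 libraries (55.1 CPM aged and 59.5 CPM young), with a log2 fold change of 2.01 ± 0.31 (SE) and an edgeR adjusted p of 0.00116, where 0.979% of 3983 genes were called. Leaving out each of the 4 libraries in turn, without the age term, kept the log2 fold change between 1.92 and 2.25. DESeq2 gave 2.04 and ended the call (adjusted p = 0.732), and in cluster 2 cells alone edgeR gave 1.52 with an adjusted p of 0.122. None of the other 5 members was called.

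In cluster 2 cells alone Eng had 226 and 287 CPM in aged and young replicate 3, against 107 and 68.2 CPM in aged and young replicate 2. Young replicate 1 had 33.6 CPM from 31 cells. Erg ran the other way there, with 231 and 171 CPM in aged and young replicate 3, against 344 and 302 CPM in aged and young replicate 2. This Erg difference did not pass (log2 fold change -0.62, edgeR adjusted p = 0.51). Over all surrogate light chain positive cells the Erg log2 fold change was -0.15 (edgeR adjusted p = 0.90). Pecam1 had negative log2 fold changes of replicate 3 over replicate 2 in all 5 classes, from -0.96 to -0.73, none of which passed (edgeR adjusted p from 0.153 to 0.676; 1.16% of genes were called in resting, 1.05% in dividing, 0.979% in surrogate light chain positive, 1.03% in MHC class II low and 2.16% in MHC class II positive cells). The resting class contains 3 of the others, and in MHC class II positive cells leaving out 1 library moved the value between -1.44 and -0.24 (-0.24 without aged replicate 2).

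The replicate numbers also differed in sex-linked transcripts. The replicate 3 libraries had 1672 (aged) and 1118 (young) Xist UMIs and 0 UMIs of 4 Y-linked genes, and the replicate 2 libraries had 0 Xist UMIs and 284 (aged) and 224 (young) Y-linked UMIs. Young replicate 1, with 8562 Xist UMIs, had 32.3 CPM of Eng, below the replicate 2 libraries. The replicate number and the sex-linked transcripts change together between replicates 2 and 3 and cannot be told apart in that comparison.

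**Figure D5:**
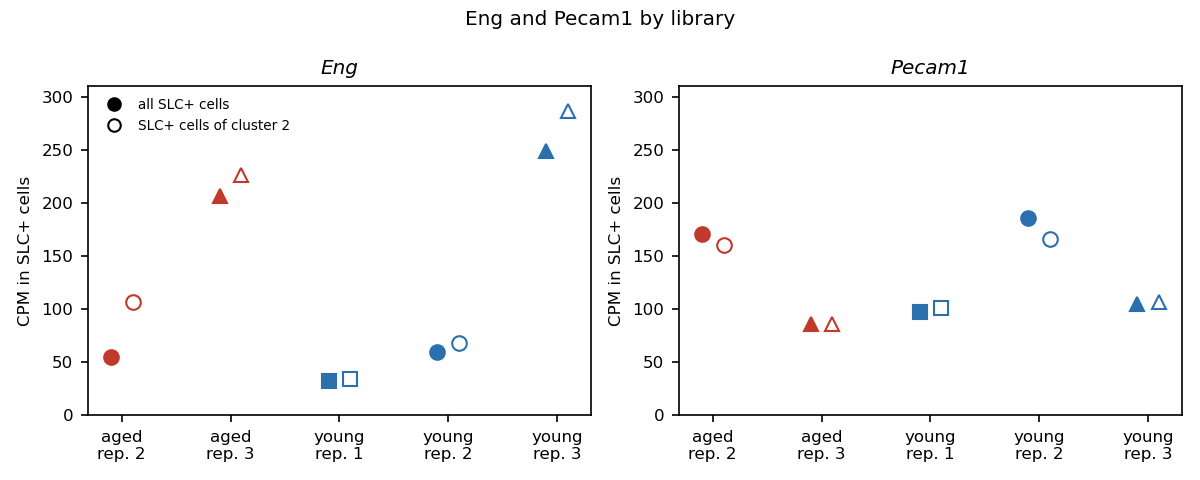
CPM of Eng and Pecam1 in surrogate light chain positive (SLC+) cells by library, aged in red and young in blue; filled symbols are all SLC+ cells and open symbols those of cluster 2. Eng is at 207 and 248 CPM in the aged and young replicate 3 libraries and under 60 CPM in the other 3, over all SLC+ cells.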

How the data were processed

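Analysed were 5 libraries of sorted mouse marrow cells. Each library has 1 deposited table of raw UMI counts (genes by cell barcodes). The submitters' processing notes name Cell Ranger, the build mm10, DESeq2 1.22.2, edgeR 3.24.3 and R 3.5.2, with no role for the last 3. How barcodes were selected before deposit, and with which Cell Ranger version, is not given in the sources used here. Cells differed in depth, so shares are given at equal depth.

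Barcodes with at least 1000 UMIs, at least 500 genes and at most 10% mitochondrial UMIs were kept (2116 of 3384). Symbols matched 27645 of 27998 identifiers. Leiden clustering (scanpy 1.11.5, leidenalg 0.10.2, 2000 variable genes without the 6 members, 30 components, 15 neighbours, resolution 0.8) gave 10 clusters. A first clustering with each gene scaled put the Cdh5-positive cells into a myeloid cluster, and scaling was dropped after that was seen. Scrublet at an expected 2% marked 58 kept cells, which stayed in the main analysis. Each cell was thinned to 1000 UMIs (seed 1). Dividing cells held at least 2 of 23 S-phase and mitosis genes; resting cells were taken in order as surrogate light chain positive (at least 2 UMIs of 4 genes), MHC class II positive (at least 3 UMIs of 4 genes), Cd2 or Ms4a1 positive, Rag positive (at least 1 UMI each) or none, the last 3 being MHC class II low pre-B cells. The cluster called myeloid-like mixes neutrophil, basophil and monocyte genes.

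Age was tested on sums per library and class with at least 10 cells (edgeR 4.0.16 quasi-likelihood, TMM, filterByExpr, adjusted p under 0.05, R 4.3.3; standard errors are the fold change over the root of F). Tests were checked on simulated counts, drawn for each class from a shared mean profile with set age changes and a fixed dispersion. That check does not cover other differences between these libraries. Alternatives were DESeq2 1.42.0, RLE factors, no filter, a replicate block, stricter barcodes, doublets left out, thinned counts, each library left out, and for shares 2000 UMIs, a second seed, doublets left out, 5% mitochondrial UMIs, resolution 1.2 and stricter gates. Permutation p-values (scipy 1.17.1) use the absolute difference, a setting changed once after the first values were seen.

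Named genes were the 6 members, the 3 genes most like each (mean of at least 50 CPM, gate genes left out) and at most 3 members of highest mean CPM in each of 5 lists; other list genes (Elk3, Cd38, Acvrl1, Tgfbr2) were chosen after their values were seen. Members and lists were chosen with earlier results of these data known. The splits by surrogate light chain count, Dntt and cluster and the replicate comparison were added after the data had been seen.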

Additional observations from a re-analysis of the deposited data

Results flagged for a closer look

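The 1268 barcodes left out by the filter, which hold 1106602 UMIs and enter no comparison, also carried the 6 genes, above the limit of 3 counts that a count of 0 allows. Pecam1 had 164 UMIs, Ptprc 224, Erg 38, Eng 57, Egfl7 33 and Fli1 130 UMIs there. In CPM (UMIs per 1000000 UMIs) this was 148 in left-out against 87.5 in kept barcodes for Pecam1, 202 against 95.7 for Ptprc, 34.3 against 32.2 for Erg, 51.5 against 25.7 for Eng, 29.8 against 35.1 for Egfl7 and 117 against 108 for Fli1. Why these barcodes were shallow was not tested.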

How the results depend on the processing

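Of 245 alternative values of the age fold change (21 gene and class comparisons), none reached an adjusted p under 0.05, and the lowest was 0.707; 8 of the 21 kept 1 direction throughout. In surrogate light chain positive cells, where fold changes were near 0, the direction turned as follows, and the cause was not tested. Pecam1 was -0.033 with DESeq2, -0.0092 with RLE factors, -0.19 with the replicate block, -0.065 without doublets and -0.070 thinned. Eng was 0.13 with DESeq2, 0.0089 with stricter barcodes, 0.10 without doublets and 0.069 thinned. Ptprc was -0.024 with stricter barcodes and -0.071 without doublets, and Erg -0.10 thinned. Leaving out 1 library gave -0.58 to 0.37 for Pecam1, -1.28 to 1.38 for Eng, -0.084 to 0.11 for Ptprc and -0.18 to 0.68 for Egfl7.

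Counts of genes called by age, 0 in each class, were 11 in resting, 10 in dividing, 1 in surrogate light chain positive, 5 in MHC class II low and 2 in MHC class II positive cells with no filter on low counts. Leaving out 1 library gave 0 to 7 in dividing (5 without aged replicate 2, 7 without aged replicate 3), 0 to 3 in surrogate light chain positive (3 without aged replicate 3) and 0 to 3 in MHC class II positive cells (3 without young replicate 2). Blocking on the replicate number, called genes numbered 4 in dividing, 7 in surrogate light chain positive, 1 in MHC class II low and 4 in MHC class II positive cells and 0 in all resting cells. Same-numbered libraries deviated together (r from 0.24 to 0.30 over genes), and also share their sex-linked transcripts; the labels do not say what a number marks, and 2 shared numbers are too few to establish pairing.

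For replicate 3 over replicate 2 in surrogate light chain positive cells, 39 genes were called, 87 with RLE factors, 1 with DESeq2 and 7 in cluster 2 cells alone; leaving out 1 library gave 30 to 99 (99 without young replicate 2).

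Of 144 alternative shares (means over libraries), 27 moved by more than 1 SD. At 2000 UMIs, which leaves out shallower cells (46 aged and 38 young surrogate light chain positive, 20 and 11 dividing, 173 and 120 MHC class II low, 33 and 32 MHC class II positive), they were, in surrogate light chain positive cells, 22.1% for Pecam1, 17.5% for Ptprc, 32.6% for Erg, 13.4% for Egfl7 and 28.2% for Fli1; in dividing cells 14.2% for Pecam1 and 15.9% for Fli1; in MHC class II low cells 24.7% for Pecam1, 23.2% for Ptprc and 25.4% for Fli1; and in MHC class II positive cells 29.4% for Pecam1, 30.1% for Ptprc, 0.741% for Eng, 1.21% for Egfl7 and 24.5% for Fli1. A second seed gave 11.6% for Egfl7 in surrogate light chain positive cells and 0.385% for Eng in MHC class II positive cells. With doublets left out and the remaining cells thinned and gated anew, Fli1 was 16.4% in surrogate light chain positive, 13.2% in dividing and 10.6% in MHC class II positive cells, Egfl7 0% in MHC class II low cells and Eng 0.385% in MHC class II positive cells; with the first thinning and gates kept, Fli1 without doublets was 12.1% of surrogate light chain positive cells pooled. At 5% mitochondrial UMIs, MHC class II positive cells had 10.3% for Ptprc, 0.735% for Eng and 11.8% for Fli1. Resolution 1.2 gave 1.46% for Egfl7 in MHC class II low cells, and stricter gates 0.741% for Eng in MHC class II positive cells.

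Depth limits the low shares: 1 UMI in 1000 is the least a cell can show, and Cdh5-positive cells number 18.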
